A study of Homo sapiens with 6 samples.

Results

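The MS4A genes studied here are 3 protein-coding genes of human chromosome 11, MS4A3, MS4A6A and MS4A4A, out of 28847 genes in the deposited table. They were taken from that table by name and are described in the order of their starts. The set was picked because MS4A4A and MS4A6A were strongly lower in the libraries given RBP4, so the difference between the groups is described for these 3 genes and is not tested. RNA sequencing had been done on 6 libraries of human cells labelled THP-1, a monocytic leukaemia line used as a model of macrophages. The control group held 3 libraries labelled as THP-1 alone and the RBP4 group 3 libraries labelled as THP-1 with RBP4, which the series describes as recombinant human RBP4 protein, a plasma carrier of retinol, given to unpolarized (M0) macrophages. Both groups shared the cell line and no other treatment, dose or time was given. Nothing in the labels says that the libraries came from separate cultures, so the spread between libraries may be technical.

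MS4A proteins are small membrane proteins that cross the membrane several times with both ends inside the cell. The family includes the B cell antigen MS4A1 (CD20) and MS4A2, the beta chain of the high-affinity IgE receptor, and many of its genes lie side by side on chromosome 11. MS4A3 is known from granulocyte and monocyte progenitors and basophils, where its protein binds the phosphatase CDKN3 and affects the cell cycle kinase CDK2. MS4A4A and MS4A6A are known from monocytes, macrophages and microglia. MS4A4A protein associates with the receptor CLEC7A in macrophages and with KIT signalling in mast cells, and variants around both genes are associated with the amount of soluble TREM2.

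MS4A3 (ENSG00000149516) spans bases 60056587 to 60071128 of chromosome 11 on the forward strand of GRCh38, MS4A6A (ENSG00000110077) bases 60172014 to 60184666 on the reverse strand, and MS4A4A (ENSG00000110079) bases 60185702 to 60317944 on the forward strand. The 3 genes lie within 261 kb. MS4A6A and the annotated start of MS4A4A point away from each other with 1035 bases between them. That start belongs to 1 of the 7 MS4A4A transcripts in GENCODE 29, and the RefSeq start used below lies 95.0 kb further along, at base 60280666. MS4A4E, a close relative of MS4A4A, lies inside the MS4A4A span on the opposite strand, from base 60201253 to base 60243088. MS4A2 lies between MS4A3 and MS4A6A, from base 60088261 to base 60098466.

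The sequences before the starts are shown because the genes are neighbours that were lower together, and because MS4A4A and MS4A4E share a similar stretch there, at different distances from their starts. All come from RefSeq on GRCh38.p14, where 3 of 3 genes had an entry, and are written 5′ to 3′ on the strand of the gene. The 250 bases before the RefSeq start of MS4A3 (chr11:60056415-60056664, forward strand) and of the outermost of 4 starts of MS4A6A (chr11:60184667-60184916, reverse strand) are given with each match to GATAA, the core recognised by GATA factors, or to its reverse complement TTATC, in capitals.
MS4A3: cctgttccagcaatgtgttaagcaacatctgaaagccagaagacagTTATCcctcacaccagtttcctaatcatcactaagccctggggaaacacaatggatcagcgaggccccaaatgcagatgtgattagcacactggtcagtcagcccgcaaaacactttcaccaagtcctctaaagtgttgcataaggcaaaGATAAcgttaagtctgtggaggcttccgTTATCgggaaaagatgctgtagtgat
MS4A6A: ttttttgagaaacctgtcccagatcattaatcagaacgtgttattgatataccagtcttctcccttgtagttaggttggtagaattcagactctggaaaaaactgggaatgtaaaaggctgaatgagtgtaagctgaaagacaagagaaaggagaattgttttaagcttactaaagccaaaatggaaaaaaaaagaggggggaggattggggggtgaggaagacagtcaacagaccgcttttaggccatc
The MS4A3 window held 3 matches, beginning 204, 54 and 26 bases before the start, and the MS4A6A window none. In the corresponding 250 bases, MS4A4A had 0 matches, and MS4A2 and MS4A4E had 1 each. Of 35116 such RefSeq windows of all genes, 20.4% held at least 1 match. A match is a string of letters and not a bound site, and no match concerns this window alone.

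The next pair aligns, without gaps, the 121 bases of the MS4A4A window (chr11:60280416-60280536, forward strand) with those of the MS4A4E window (chr11:60243138-60243258, reverse strand), and capitals mark the bases that differ.
MS4A4A: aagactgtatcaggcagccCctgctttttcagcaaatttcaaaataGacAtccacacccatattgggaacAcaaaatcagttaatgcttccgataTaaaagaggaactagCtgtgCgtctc
MS4A4E: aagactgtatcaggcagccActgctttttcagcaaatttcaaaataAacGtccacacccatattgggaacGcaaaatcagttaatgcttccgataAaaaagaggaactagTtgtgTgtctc
These stretches were identical at 114 of 121 bases (94.2%). They differed at 7 bases. The stretch ends directly before the MS4A4E start but lies at the far end of the MS4A4A window. The bases directly before the MS4A4A start were therefore not part of the alignment. TATAAA, the form of a TATA box, or its reverse complement TTTATA was found in the 250-base window of MS4A4A once, 157 bases before the start and within the stretch shown. The MS4A4E window held 2 overlapping matches, 237 and 235 bases before the start and outside the stretch shown, which had 0. MS4A2 had 1 match, 29 bases before the start, and MS4A3 and MS4A6A none, against 10.7% of all 250-base windows with at least 1. The only GATAA match of the pair lay in the stretch of MS4A4E, 30 bases before the start. GAGGAA, a core of sites for the myeloid factor SPI1, was found on either strand 3 times in the 250-base window of MS4A4A, once each in those of MS4A6A and MS4A4E and not in that of MS4A3, against 23.6% of all windows with at least 1 match. Binding was not measured.

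Before the results, the cells themselves need a remark. Recovered from the table, depth lay between 15202000 and 16420517 reads a library, so that 3 reads, which is what a count of 0 leaves possible, equalled 0.183 to 0.197 CPM, a gene's reads relative to the library total. Of 22 monocyte and macrophage markers, 14 were analysed and 3 (CD33, SPI1 and CTSS) reached 10 CPM in every library. The summed level of all 14 was 123 to 130 CPM in the control and 134 to 142 CPM in the RBP4 libraries. Of the 6 that were tested, ITGAM, LYZ, SPI1 and MSR1 rose, CD33 fell and CTSS missed the threshold. The calls of SPI1 and MSR1 were not kept under every alternative. With RBP4, mean LYZ went from 11.2 to 16.4 CPM and mean ITGAM from 6.37 to 10.9 CPM. CD14 averaged 1.39 normalized reads in the control libraries and was at 0 in all RBP4 libraries, and CD68 averaged 0.345 and 1.27. Both CD14 and CD68 were too low to be tested. Of 17 erythroid markers, 13 reached 10 CPM in every library, with a sum of 1314 to 1329 CPM in the control and 1433 to 1463 CPM in the RBP4 libraries. They did not move together: 6 rose, 4 fell and 7 missed the threshold. RHAG, the largest part of the sum, averaged 470 and 552 CPM. The 4 that fell were the globin genes HBZ (87.4 and 54.8 CPM), HBA2, HBG1 and HBA1. A monocytic identity is thus not borne out by these markers, and THP-1 is used here only as the name on the labels. Of 16 basophil and mast cell markers, 8 were analysed and KIT alone reached 10 CPM everywhere, with sums of 32.4 to 35.1 CPM and 28.9 to 33.3 CPM. Of 10 granule and progenitor markers, 9 were analysed and none reached 10 CPM, with sums of 9.19 to 11.5 CPM and 14.4 to 15.8 CPM. Of 9 B cell markers, 5 were analysed and none reached 10 CPM everywhere, with sums of 15.3 to 19.3 CPM and 16.3 to 17.8 CPM. The mitochondrial share of reads was 5.90% to 6.10% in the control and 7.58% to 7.69% in the RBP4 libraries. The part of these shifts in the MS4A values was not tested, and in bulk RNA fewer cells of a type and less RNA per cell cannot be told apart.

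MS4A3, MS4A6A and MS4A4A were each lower in all 3 RBP4 libraries than in any control library. Among the 15676 genes that had at least 10 normalized reads in at least 3 libraries, 4525 (28.9%) showed such a separation downward and 27.3% upward, and the 3 members were chosen from this contrast, so nothing is read from their count. MS4A4A kept 21.5% of its control level, MS4A6A 25.4% and MS4A3 55.8%. Normalized reads are the deposited values, in which the reads of a library were divided by a single size factor.

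MS4A3 had 3537, 3757 and 3923 normalized reads in control libraries 1, 2 and 3, and 2071, 2091 and 2096 in RBP4 libraries 1, 2 and 3. The control values spread over a wider range than the RBP4 values, which lay close together, and the groups did not overlap. The means were 3739 ± 194 and 2086 ± 13.4 (SD, n = 3 per group), a 1.79-fold lower level, and the log2 fold change of log2(value + 1) was -0.84 (SE 0.035). On the scale of CPM, MS4A3 stood at 230 ± 11.5 in the control libraries, above 95.2% of the genes tested, and at 135 ± 0.582 in the RBP4 libraries (SD, n = 3).

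MS4A6A was the least abundant of the 3. Its values were 134, 128 and 126 normalized reads in control libraries 1, 2 and 3, and 46.4, 20.8 and 31.5 in RBP4 libraries 1, 2 and 3. All control libraries were close to each other, while the RBP4 libraries differed among themselves, with library 1 highest and library 2 lowest, and the groups did not overlap. These values rested on 118 to 129 reads a library in the control group and on 48, 22 and 33 reads in the RBP4 group. The means were 129 ± 3.78 and 32.9 ± 12.9 normalized reads (SD, n = 3 per group), a 3.93-fold lower level, with a log2 fold change of -2.01 (SE 0.20). In CPM the gene stood at 7.95 ± 0.247 and 2.12 ± 0.835 (SD, n = 3), and it passed the filter on low values in all 6 libraries.

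MS4A4A had 2622, 2807 and 2670 normalized reads in control libraries 1, 2 and 3, and 580, 569 and 591 in RBP4 libraries 1, 2 and 3. The replicates of both groups were tight and the gap between the groups was wider than the range of either. The means were 2699 ± 96.4 and 580 ± 11 normalized reads (SD, n = 3 per group), a 4.65-fold lower level, with a log2 fold change of -2.22 (SE 0.045). Its CPM was 166 ± 5.87 in the control libraries, above 92.5% of the genes tested, and 37.4 ± 0.685 in the RBP4 libraries (SD, n = 3). The authors' deposited table gives log2 fold changes of -0.84 for MS4A3, -1.98 for MS4A6A and -2.22 for MS4A4A.

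**Figure D1:**
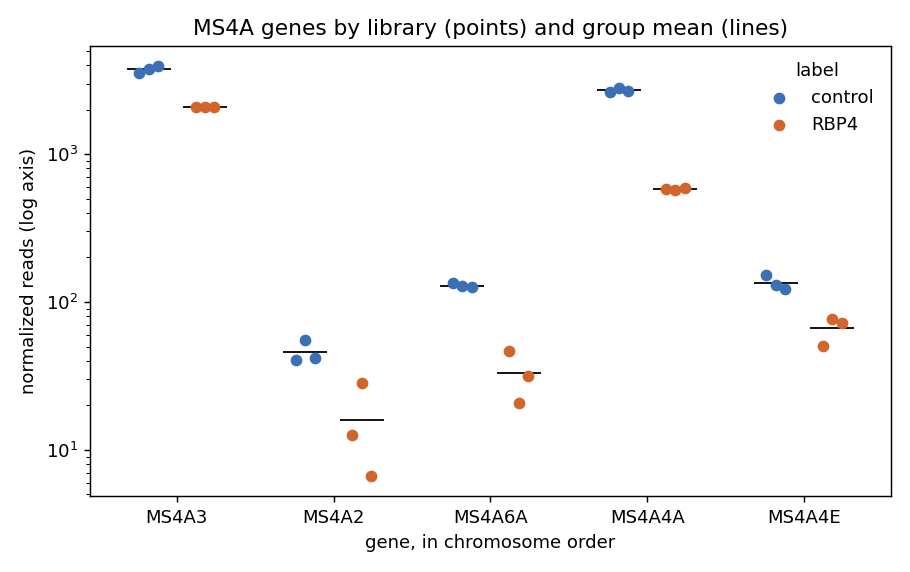
Normalized reads (log axis) of the MS4A genes that passed the filter, in chromosome order, with 1 point per library (blue control, orange RBP4) and a line at each group mean. The MS4A4A points fall from 2622 to 2807 in the control libraries to 569 to 591 in the RBP4 libraries, while the RBP4 points of MS4A6A spread from 20.8 to 46.4 and those of MS4A2 from 6.68 to 28.3.

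As a description, MS4A4A had the 12th, MS4A6A the 15th and MS4A3 the 337th lowest log2 fold change of the 15676 genes. A log2 fold change of -1 or below was found for 228 genes (1.45%). Among the 2313 genes with at least 100 CPM in the control libraries, MS4A4A had the lowest log2 fold change. The next was SLC6A8, a creatine transporter, at -1.61, and 22 genes of that abundance were at -1 or below.

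**Figure D2:**
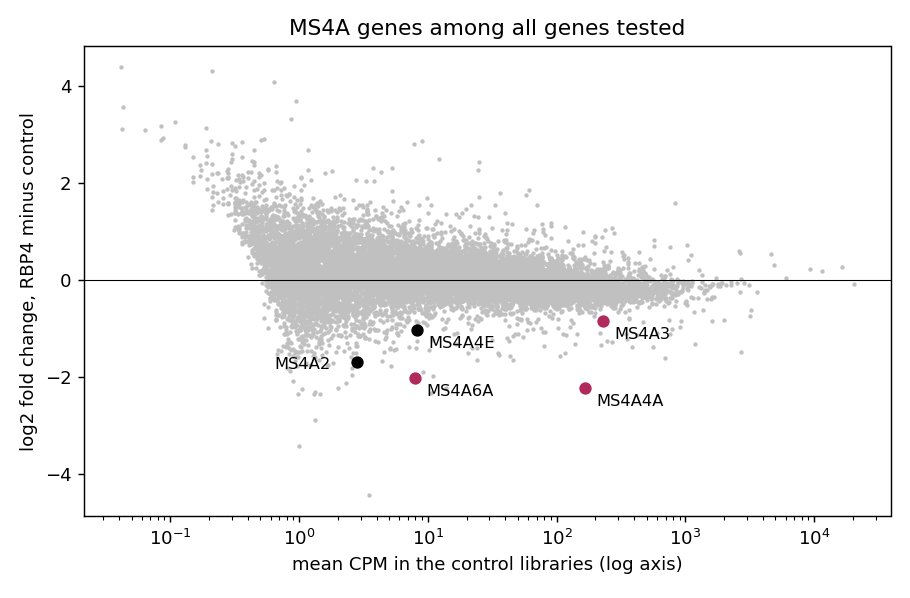
Log2 fold change (RBP4 minus control, vertical axis) against the mean CPM of the control libraries (log axis) for the 15676 genes tested (grey points). MS4A3, MS4A6A and MS4A4A are in red and MS4A2 and MS4A4E in black. MS4A4A, at 166 CPM and -2.22, lies below every other gene with at least 100 CPM in the control libraries.

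The spread between replicates was set beside that of genes whose mean over all libraries lay within 1.5-fold. The within-group SD of log2(value + 1) was 0.041 for MS4A4A against a median of 0.047 over 2266 such genes, and 0.053 for MS4A3 against 0.039 over 1179. For MS4A6A it was 0.40 against 0.18 over 1498 genes. Most of it lay between the RBP4 libraries, where MS4A6A was below the mean by which these genes were matched, so the 2 values are not on an equal footing.

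Levels of different genes were compared per kilobase of gene length, with lengths of 2095 bases for MS4A3, 5791 for MS4A6A and 2948 for MS4A4A. These lengths join the exons of all transcripts in GENCODE 29, which are 8, 21 and 7 for these genes. The length of the transcripts present in the cells is not known, so levels and ratios per length depend on this choice. In the control libraries MS4A3 was highest at 1785 ± 92.4 normalized reads per kb, followed by MS4A4A at 916 ± 32.7 and MS4A6A at 22.3 ± 0.654 (SD, n = 3). In the RBP4 libraries the order was the same, with 996 ± 6.41, 197 ± 3.73 and 5.68 ± 2.22 normalized reads per kb (SD, n = 3). Neighbours in this order differed by more than their spread in each group. Per length, the ratio of MS4A4A to MS4A3 was 0.527, 0.531 and 0.484 in control libraries 1, 2 and 3 and 0.199, 0.193 and 0.201 in RBP4 libraries 1, 2 and 3. The ratio was lower in every RBP4 library than in any control library. The ratio of MS4A4A to MS4A6A averaged 41.1 ± 2.32 and 38.4 ± 14.7 (SD, n = 3), with the RBP4 values between 24.6 and 53.8 on both sides of the control values.

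Whether reads of one MS4A gene could be counted for another was looked at in the transcripts of GENCODE 29. No 50-base word of MS4A3 occurred in a transcript of another gene. Of 3068 such words of MS4A4A, 21 (0.684%) also occurred in MS4A4E, and of 6211 words of MS4A6A, 104 (1.67%) occurred in MS4A6E. For MS4A4E, 96 of 1770 words (5.42%) occurred in transcripts of 34 other genes, and for MS4A2, 19 of 4499 (0.422%) in those of 17. At 100 bases MS4A4A, MS4A2 and MS4A4E shared none, while MS4A6A still shared 22 of 6700 words with MS4A6E. The exons of MS4A4A and MS4A4E had 0 bases in common, but the library kit does not mark the strand, so reads from introns of the long MS4A4A transcript within the exons of MS4A4E cannot be told apart from MS4A4E.

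Of the other 15 genes of the family list, which includes the related TMEM176A and TMEM176B of chromosome 7, 7 were analysed and 4 were tested. MS4A2 and MS4A4E fell, by limma's test with p-values adjusted over all genes (Benjamini-Hochberg, threshold 0.05). In that test 26.1% of all genes were lower, 24.5% higher and 50.6% called in all. MS4A2, the beta chain of the IgE receptor, had 40.4, 55.3 and 41.8 normalized reads in the control and 12.6, 28.3 and 6.68 in the RBP4 libraries. It was 2.89-fold lower (log2 fold change -1.68, SE 0.34, limma adjusted p = 1.0e-04) and 5 of its 6 libraries reached the 10 normalized reads of the filter, with RBP4 library 3 below it. MS4A4E had 151, 131 and 122 normalized reads in the control and 50.3, 76.5 and 72.5 in the RBP4 libraries, 2.03-fold lower (log2 fold change -1.03, SE 0.15, limma adjusted p = 6.1e-08). Neither gene overlapped between the groups.

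The ratio of MS4A4A to MS4A4E per length was 10.7 ± 1.32 in the control and 4.78 ± 1.16 in the RBP4 libraries (SD, n = 3). The ratios are a description, since MS4A4A was picked for its fall and reads from introns of its long transcript cannot be told apart from MS4A4E. Whether that transcript was present was not tested. TMEM176A averaged 7.35 ± 5.50 and 11.4 ± 3.74 normalized reads and TMEM176B 6.14 ± 4.29 and 11.8 ± 7.72 (SD, n = 3), with limma adjusted p = 0.15 and 0.18. Without control library 3, TMEM176A was called higher (0.047, in a range of 0.047 to 0.92), and without RBP4 library 2 so was TMEM176B (0.047, in a range of 0.047 to 0.44). MS4A6E, MS4A7, which is a macrophage gene, and MS4A15 had between 0 and 10.5 normalized reads in any library and were not tested.

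The genes around the cluster were chosen by position, as those starting within 500 kb of the 3 genes. Of these 22, 10 were tested, of which 1 rose, 5 fell and 4 missed the threshold. Over all genes tested, 24.5% rose and 26.1% fell. Their median log2 fold change was -0.43, against -0.0021 over all genes tested. Outside the MS4A family 8 were tested, and 3 fell, 1 rose and 4 missed the threshold (median -0.20). That median includes MIR6503 (-0.98, not called), which lies inside MS4A4E and the MS4A4A span and is not a separate neighbour. The others start 250 to 482 kb before MS4A3, and no gene beyond MS4A4A was tested, so these values describe 1 side of the cluster. MRPL16, a mitochondrial ribosomal protein gene that starts 250 kb from MS4A3, fell from 2022 to 1348 normalized reads (log2 fold change -0.59, limma adjusted p = 3.7e-20). STX3, a syntaxin of vesicle fusion, fell by 0.27 on the log2 scale and the sterol-binding gene OSBP rose by 0.12, while PATL1, an mRNA decay factor, was at -0.091 (limma adjusted p = 0.064) and was called lower without control library 3 (0.039) or RBP4 library 1 (0.043), in a range of 0.039 to 0.68. The fall of the pseudogene FABP5P7 (-0.83, limma adjusted p = 0.010) was lost with DESeq2 (0.054) and without RBP4 library 2 (0.052), and its alternatives ranged from 0.0039 to 0.054. The nearest genes on either side of the members were low: OOSP1 and OOSP4B before MS4A3 had at most 7.63 normalized reads, and MS4A6E and MS4A7 after MS4A4A at most 4.02.

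**Figure D3:**
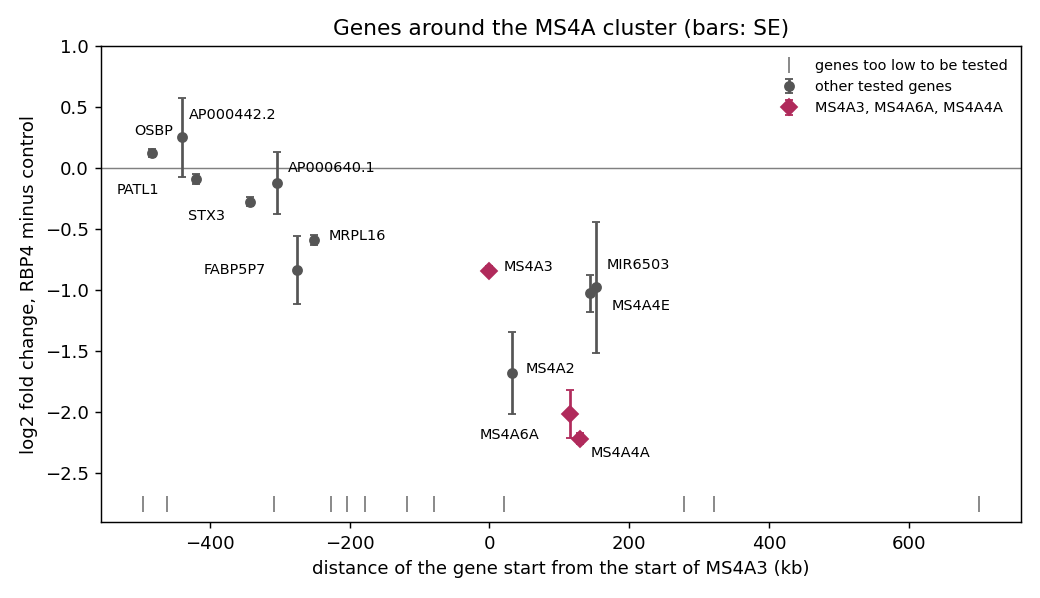
Log2 fold change (RBP4 minus control, bars SE) of tested genes against the distance of their start from the start of MS4A3 in kb, with grey ticks at the bottom for genes too low to be tested. The 5 MS4A genes tested in the cluster lie between -0.84 and -2.22, and the other genes between -0.98 (MIR6503, not called) and 0.25.

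The partner lists hold genes whose products are known to act with the MS4A proteins or with receptors they are tied to. Of 9 genes of the MS4A3 list, 6 were tested, and 2 fell, 1 rose and 3 missed the threshold. Since 50.6% of all genes tested were called, 26.1% lower and 24.5% higher, nothing is read from the counts of these lists. CDKN3, the phosphatase that MS4A3 binds, had 346 ± 11.9 and 340 ± 19.4 normalized reads (SD, n = 3, limma adjusted p = 0.80). CDK2, the kinase it acts on, fell from 1557 ± 51.9 to 1294 ± 21.0, a 1.20-fold lower level, and CCNA2, a cyclin that activates CDK2, fell 1.38-fold. CCNE1 and CCNE2, the E cyclins, had log2 fold changes of -0.058 and 0.065 and did not pass. CSF2RB, the common beta chain of the IL-3, IL-5 and GM-CSF receptors, rose from 31.4 ± 1.25 to 61.1 ± 9.16 normalized reads (log2 fold change 0.93, limma adjusted p = 1.7e-04), while its partner chains CSF2RA, IL3RA and IL5RA were too low to be tested.

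Of 14 genes on the list for MS4A4A and MS4A6A, 11 were analysed and 10 tested, and 6 fell (MS4A2 among them), 3 rose and 1 missed the threshold. Among all genes tested, 26.1% fell and 24.5% rose. KIT, the receptor of stem cell factor, had 328, 306 and 308 normalized reads in the control and 234, 236 and 235 in the RBP4 libraries, a 1.34-fold fall without overlap (limma adjusted p = 5.0e-05). SYK, a kinase downstream of CLEC7A and of IgE receptors, rose from 19.4 ± 8.45 to 53.5 ± 6.60 normalized reads (limma adjusted p = 1.5e-06), and CARD9, its adaptor, rose 1.69-fold (limma adjusted p = 4.4e-04). The proteases that release soluble TREM2 differed in direction: ADAM17 rose 1.20-fold and ADAM10 fell 1.14-fold. LYN, a kinase that binds the chain encoded by MS4A2, fell 1.13-fold and the tetraspanin CD81 1.22-fold. The fall of CD9, another tetraspanin (-0.27, limma adjusted p = 0.020), was lost without control library 3 (0.10), without RBP4 library 2 (0.076), with the libraries scaled to an equal total (0.088) and with DESeq2 (0.074), and ranged from 0.013 to 0.10. TYROBP, the signalling partner of TREM2, had 12.8 ± 0.336 and 13.7 ± 3.48 normalized reads (SD, n = 3) and did not pass. FCER1G was too low to be tested, and CLEC7A, TREM2 and FCER1A were not analysed here.

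Transcription factors and signalling genes of the regulator list were mostly expressed, with 11 of 15 at 10 CPM or more in every library. Of the 13 that were tested 7 rose, 3 fell and 3 missed the threshold (median log2 fold change 0.17), where 24.5% of all genes rose and 26.1% fell. GATA2, which is needed in stem cells and mast cells, fell from 2993 ± 38.2 to 2264 ± 34.8 normalized reads (log2 fold change -0.40, limma adjusted p = 2.7e-16). GATA1 stood at 3170 ± 83.9 and 3238 ± 22.2 normalized reads (limma adjusted p = 0.45) and was called higher, at 0.10 on the log2 scale, when the libraries were scaled to an equal total (0.0087, the lowest in a range up to 0.81). MYB, a factor of immature blood cells, fell 1.12-fold and FKBP5, a target of the glucocorticoid receptor, 1.28-fold. TSC22D3, another such target at a low level, rose from 11.7 ± 2.06 to 51.3 ± 12.4 normalized reads (SD, n = 3, limma adjusted p = 6.6e-09). CEBPB, a factor of macrophage activation, rose 2.22-fold, RUNX1 1.44-fold and TAL1 1.18-fold. SPI1 rose 1.13-fold, a call lost without RBP4 library 2 (limma adjusted p = 0.058, in a range of 3.5e-04 to 0.058). STAT6 carries the IL-4 signal that is known to induce MS4A4A in macrophages. It rose 1.12-fold (limma adjusted p = 0.0026, in a range of 3.9e-05 to 0.047), and its groups overlapped. IL4R, the receptor of IL-4, rose 1.26-fold. NR3C1, the glucocorticoid receptor, was at 705 ± 26.8 and 737 ± 42.6 normalized reads (SD, n = 3, limma adjusted p = 0.37) and was called with the libraries scaled to an equal total (0.0498, in a range of 0.0498 to 0.71).

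**Figure D4:**
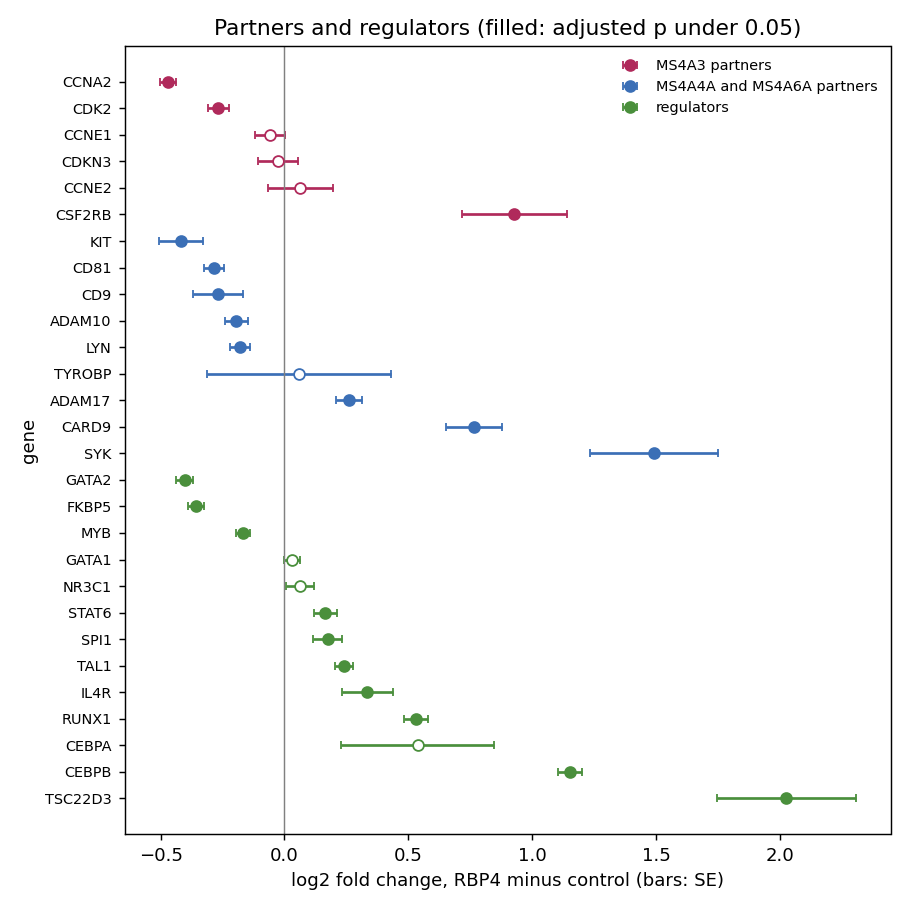
Log2 fold change (RBP4 minus control, bars SE) of the tested partner and regulator genes outside the MS4A family, ordered by value within each list. Filled points had an adjusted p under 0.05. The lists hold genes on both sides of 0, from CCNA2 at -0.47 to TSC22D3, a glucocorticoid target, at 2.02.

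Genes with a pattern like that of each member were found as those with the smallest Euclidean distance between log2(value + 1) profiles over the 6 libraries, after each gene was centred on its mean. The measure includes the difference between the groups by which the members were chosen, so it is a description. Nearest to MS4A4A were ACPP, a phosphatase gene, at a distance of 0.29, COL14A1, a collagen gene, at 0.34, AC005394.1, a long non-coding RNA, at 0.45, and ANKRD37 at 0.56. They were on chromosomes 3, 8, 19 and 4. ACPP went from 173 ± 19.0 to 33.7 ± 2.82 normalized reads and COL14A1 from 179 ± 12.3 to 44.9 ± 3.01 (SD, n = 3). Nearest to MS4A3 were FDFT1 and SCD, which make squalene and unsaturated fatty acids, the chaperone gene HSP90AA1 and the histone gene HIST1H2AC, at distances of 0.096 to 0.11. For MS4A6A the nearest were LINGO1-AS1, AC084357.3, LCMT1-AS2 and again COL14A1, at 0.38 to 0.68, of which the first and second averaged 13.2 and 13.9 normalized reads in the control libraries. Both of these passed the filter through the control libraries alone and had 1.89 to 4.83 normalized reads in the RBP4 libraries, so their likeness to MS4A6A rests on few reads. None of the genes nearest to MS4A3, MS4A6A or MS4A4A lay on chromosome 11. Only 4 genes were kept per member, so nothing is read from their chromosomes.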

How the data were processed

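Polyadenylated RNA of 6 libraries was sequenced after NEBNext Ultra library preparation, per the labels' protocols. The aligner and counter are not named in the labels. The table that the authors deposited holds, for each gene and library, a normalized signal, and beside it group means, log2 fold changes and p-values of their own, raw and adjusted. Every signal was a whole multiple of 1 step per library (100% within 0.01 reads), which gave the reads back. All 28847 genes had the coordinates of GENCODE 29 (GRCh38), and 0 columns of per-sample values were left unused. Genes reaching a value of 10 in 3 or more libraries were tested with limma-trend on log2(value + 1), with robust moderation, two-sided, Benjamini-Hochberg adjustment and a threshold of 0.05 (R 4.3.3, limma 3.58.1). Alternatives were edgeR 4.0.16 and DESeq2 1.42.0 on the recovered reads, a pseudocount of 5, no filter, scaling to an equal total, a replicate block and leaving out each library. The model was also run on simulated data in which far fewer genes differed than were called here, so nothing about the present counts is read from that run. CPM relates a value to the total of its library. The members and lists were chosen with earlier results of these data known. Genes named were the members, expressed family genes, neighbours and partners past the threshold, neighbours that flank the members, regulators at 10 CPM or more and the 4 nearest profiles per member. Other genes of these lists are named where they stand beside one of these.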

Additional observations from a re-analysis of the deposited data

How the results depend on the processing

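MS4A3, MS4A6A and MS4A4A were lower under all 12 alternatives. Their log2 fold changes ranged from -0.88 to -0.77, from -2.29 to -1.73 and from -2.24 to -2.15. With the libraries scaled to an equal total they moved by more than the replicate SD for MS4A3 (-0.77) and MS4A4A (-2.15), since that scaling raised the median over all genes by 0.068 (log2), and the share of calls that were higher went from 48.4% to 61.7%. The replicate block gave 7829 calls against 7934 without it. Same-numbered libraries did not deviate together (correlations of -0.017 to 0.0037), and not every library correlated best with its own number, so the numbers were not taken to pair the libraries. Without 1 library, 6917 to 7451 genes were called. For 69 other genes of the lists and the neighbourhood, 783 of 811 values kept direction and call, 19 lost the call, 9 gained one and 0 reversed. MS4A2 and MS4A4E were called under each alternative. Depth left MS4A6E, MS4A7 and MS4A15 untested, and the RBP4 values of MS4A6A rested on 22 to 48 reads.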
